A study of Ovis aries with 16 samples.

Results

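AKT1, PRKACA and PPP2CA encode 2 protein kinases and a protein phosphatase, and the amount of their mRNA was read on 16 arrays, each of the frontal cortex of 1 sheep fetus. These 3 genes, of 988 that could be named on the array, were read by 4 of the 15008 probes. AKT1 and PRKACA were taken because the study also chose AKT and PKA as targets for PCR, and PPP2CA was chosen by its log2 fold change between hypoxia + ketamine and hypoxia control in these same arrays, where it was among the larger increases. The PPP2CA values in hypoxia control and hypoxia + ketamine are therefore a description with no test. The array values of AKT1 and PRKACA were known when the genes were put together, so their p-values are no independent evidence.

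The fetuses were catheterized, in late gestation, and almost all were twins. The labels do not say which of them shared a ewe. Normoxia control (n = 3) had no ketamine and 30 min of normoxia, and normoxia + ketamine (n = 4) had 3 mg/kg of ketamine through a fetal vein before the same 30 min. Hypoxia control (n = 5) had no ketamine and 30 min in which nitrogen was added to the gas the ewe breathed, and hypoxia + ketamine (n = 4) had the same dose of ketamine before that stimulus. All fetuses then recovered in normoxia for 23.5 h, and the cortex was taken 24 h after the onset. The labels of hypoxia control replicate 1 conflict, since the title gives hypoxia control while the source name and the characteristics give normoxia + ketamine. The title was used here, and values with the other reading are given where they differ.

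AKT1 is a serine/threonine kinase that is recruited to the cell membrane when growth factor receptors activate PI3 kinase, and it phosphorylates proteins that control survival, glucose uptake and protein synthesis. PRKACA is the alpha catalytic subunit of protein kinase A (PKA), which is held inactive by regulatory subunits until cyclic AMP binds them, and in neurons it phosphorylates the transcription factor CREB and several receptors. PPP2CA is the alpha catalytic subunit of protein phosphatase 2A (PP2A), which works with a scaffold and a regulatory subunit and removes phosphate from many proteins, AKT among them. The activity of all 3 is set largely by phosphorylation, by partners or by second messengers, and an array measures none of these, but only the amount of transcript.

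The probes are 60 bases long, and their sequences are shown because each value is the signal of the spots that carry that sequence. The AKT1 probe starts at base 1316 of the sheep reference transcript and is given whole. The probes of PRKACA start at bases 1499 and 1533 of its transcript and share 26 bases, set in capitals in the last 30 bases of the second probe and in the first 30 bases of the brighter one, so they are not independent readings. The PPP2CA probe was designed on an expressed sequence tag that the files tie to this gene, and its first 30 bases are given.
AKT1: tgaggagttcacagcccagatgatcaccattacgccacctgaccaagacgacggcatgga
PRKACA, second probe: tcctGCCAGGGAAGGAGAGATTTTAGTGAC
PRKACA, brighter probe: GCCAGGGAAGGAGAGATTTTAGTGACtcgt
PPP2CA: ttaaacttgtacagtattgccatgaaccta
The longest run of bases that any of these probes shared, on either strand, with a probe of another gene was 14 for PPP2CA and 13 for the others. The array has no probe that could be named for the other AKT genes or for the other catalytic subunits of PKA and PP2A, and a probe can bind the transcript of a close relative. The brighter PRKACA probe holds a stop codon in every reading frame, so no frame is open through it. The second PRKACA probe and the PPP2CA probe each have a frame without a stop codon. Where these probes lie relative to the coding sequence was not analysed further.

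All 4 probes were well above background on 16 of 16 arrays, and none was saturated. Before normalization the mean spot signal of AKT1 was between 504.9 and 775.3, that of the brighter PRKACA probe between 119 and 183, and that of PPP2CA between 3137.6 and 5367.7, in fluorescence units, over local backgrounds of 15 to 27. Values from here on are log2 signals after background correction and quantile normalization, which makes arrays comparable for a probe but does not rank one gene against another. The arrays were on 2 slides, 8 on each, each slide scanned at a single time and with every group on both. Any pair of arrays correlated between 0.984 and 0.996. The labelled tissue was checked against cell markers. GFAP, AQP4 and GJA1 of the astrocyte list were well above background on 16 arrays, but FGFR3 of that list on only 1. A probe described as neurogranin, a neuronal protein, was well above background on 16 arrays, and a probe described as neurofilament-H on 13. No neuron or oligodendrocyte marker of the lists was on the array by name. Since whole tissue was used, fewer cells of a type and less RNA per cell cannot be told apart.

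**Figure D1:**
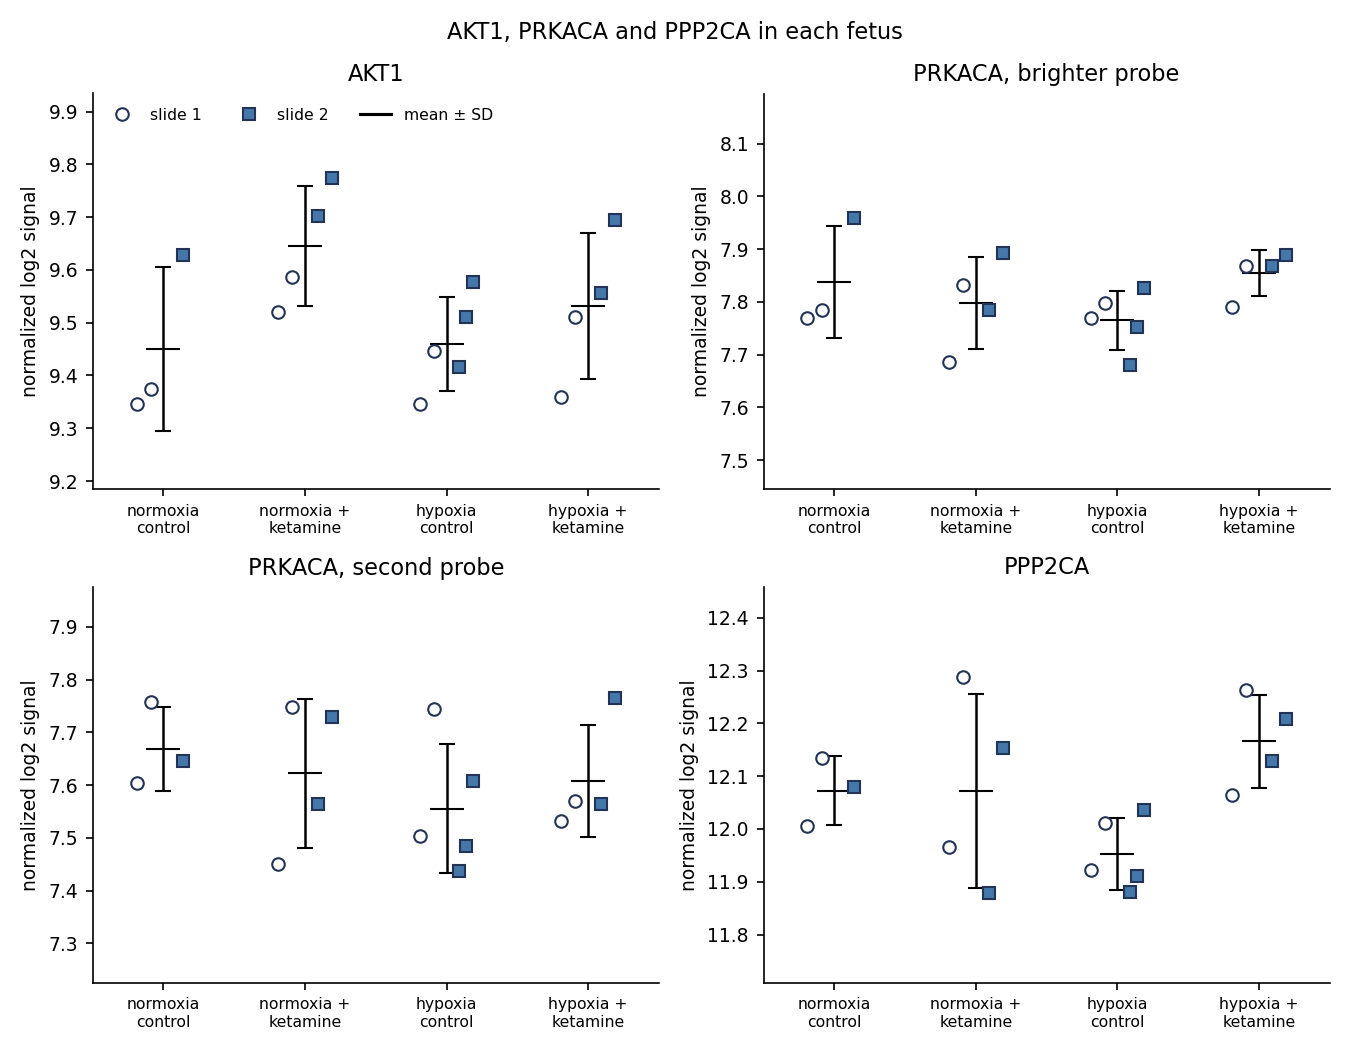
Normalized log2 signal of AKT1, of both PRKACA probes and of PPP2CA in each of the 16 fetuses, by group, with the mean ± SD. Open circles are slide 1 and filled squares slide 2. The AKT1 panel shows slide 2 above slide 1 within each group on average, and the PPP2CA panel shows all hypoxia + ketamine values (12.06 to 12.26) above all hypoxia control values (11.88 to 12.04). Each panel spans the same log2 range, and the axes do not start at 0.

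AKT1 mRNA was highest with ketamine in normoxia and nearly level in the other groups. In normoxia control its log2 signal was 9.37, 9.35 and 9.63. In normoxia + ketamine it was 9.59, 9.52, 9.70 and 9.77. All 4 ketamine values lay above replicates 1 and 2 of normoxia control, but replicate 3 of normoxia control lay within the ketamine range, so the groups overlapped. In hypoxia control it was 9.45, 9.35, 9.58, 9.42 and 9.51. In hypoxia + ketamine it was 9.36, 9.51, 9.70 and 9.56, a range that covered all hypoxia control values but the lowest. From lowest to highest the group means were those of normoxia control (9.45 ± 0.16, SD, n = 3), hypoxia control (9.46 ± 0.089, n = 5), hypoxia + ketamine (9.53 ± 0.14, n = 4) and normoxia + ketamine (9.65 ± 0.11, n = 4), and no neighbours in that order differed by more than their spread. From the lowest to the highest fetus AKT1 ranged over 1.35-fold.

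The question of what ketamine did on its own was answered by normoxia + ketamine against normoxia control. The log2 fold change of AKT1 was 0.20 (SE 0.092), or 1.15-fold, which was larger in size than that of 91.8% of all probes. It did not pass the threshold of the study's methods, an unadjusted P under 0.05 in limma's moderated test, nor adjustment over all probes (limma adjusted P = 1). The two-sided exact permutation test over fetuses gave p = 0.171, where 4 against 3 fetuses cannot go below 0.0571. At that threshold 2.31% of all probes were called in this comparison. The value was 0.19 within slide 1 and 0.11 within slide 2. It did pass the unadjusted threshold when slide was a term in the model (0.17) and when the replicate number was a block. It passed as well when each spot was summarized by its median (0.22) and with the authors' processed values (0.22). It did not pass (0.16) when hypoxia control replicate 1 was placed in normoxia + ketamine. With 75th percentile scaling of the background-corrected values it was 0.11 while the median of all probes was at -0.30. Relative to that median it was 0.41, against 0.19 with quantile normalization. It also passed the threshold without normoxia control replicate 3, the high control (0.29), without normoxia + ketamine replicate 2 (0.24), and without hypoxia + ketamine replicate 1 or 3 (0.20 in each case), which enter only through the common spread, and leaving out any of the other 12 arrays did not bring it past the threshold. None of the 16 marker genes of other cell types was called in this comparison. The mean level of the marker lists was 10.06 to 10.24 with ketamine and 10.03 to 10.21 without for astrocytes, 7.48 to 7.65 and 7.3 to 7.6 for microglia and macrophages, 9.88 to 11.42 and 10.28 to 11.86 for choroid plexus and meninges, 7.57 to 7.69 and 7.65 to 7.68 for endothelium, and 13.66 to 14.87 and 13.32 to 14.77 for red blood cells. TTR, the transthyretin made by choroid plexus, read 16 and 15.55 in replicates 1 and 2 of normoxia control, the controls with low AKT1, and 9.33 in replicate 3, while it read 8.42 to 12.83 with ketamine. The other markers of the choroid plexus and meninges list went the other way with ketamine. Their log2 fold changes were 0.11 (COL1A2), 0.05 (DCN) and 0.39 (IGF2). The part of TTR and of these markers in the AKT1 values was not tested.

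**Figure D2:**
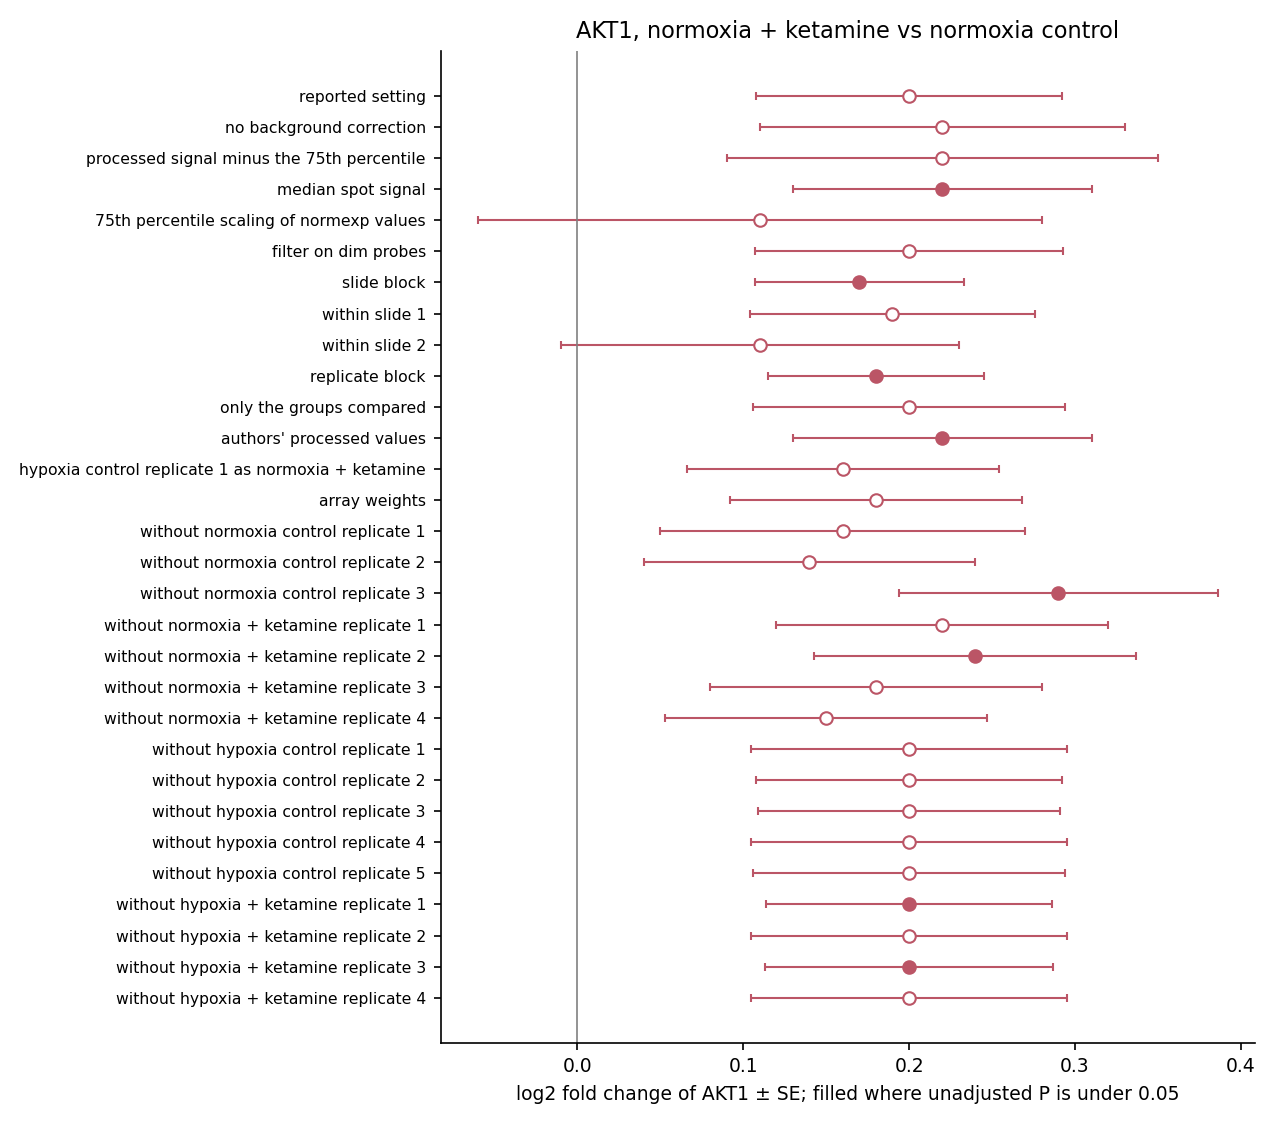
Log2 fold change of AKT1 in normoxia + ketamine against normoxia control (point) ± SE under each setting, with filled points where the unadjusted P was under 0.05. All values lie above 0, between 0.11 and 0.29, and the call changes with the slide term, the replicate block, the spot summary, the authors' values and single arrays.

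AKT1 also differed between the slides. Its mean was 9.44 ± 0.093 on slide 1 and 9.61 ± 0.12 on slide 2 (SD, n = 8 each). With the groups in the same model, slide 2 was higher by 0.18 (SE 0.042, limma adjusted P = 0.104), which passed the unadjusted threshold, as did 7.94% of all probes. Of the normoxia groups, normoxia control had 2 fetuses on slide 1 and 1 on slide 2 and normoxia + ketamine 2 on each. The slide difference of PRKACA (0.06, SE 0.041) did not pass the threshold, and that of PPP2CA was -0.03 (SE 0.059), with no test.

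On the arrays neither hypoxia nor ketamine before hypoxia moved AKT1 past the threshold. By PCR on RNA of the same samples, the paper reports that AKT appeared lower after hypoxia and was not altered further by ketamine. The difference between PCR and array was not tested. Hypoxia control against normoxia control gave a log2 fold change of 0.01 (SE 0.088, 95% confidence interval -0.18 to 0.2, limma adjusted P = 0.995), in a comparison in which 7.98% of all probes were called. With the slide term that value was -0.04, and it turned negative under several other settings too. Hypoxia + ketamine against hypoxia control gave 0.07 (SE 0.081, adjusted P = 0.821), against 9.06% of all probes called. Hypoxia + ketamine against normoxia + ketamine gave -0.11 (SE 0.085, adjusted P = 0.861), against 6.86% called. The interaction, the difference between the effects of hypoxia with and without ketamine, was -0.12 (SE 0.12, adjusted P = 0.876), against 6.35% called. With 75th percentile scaling and relative to the median of all probes, AKT1 was 0.12 for hypoxia, -0.10 for ketamine before hypoxia, -0.42 for hypoxia under ketamine and -0.51 for the interaction, against 0.03, 0.05, -0.12 and -0.14 relative to that median with quantile normalization, so that ketamine before hypoxia turned in sign. The exact permutation p of the first 3 comparisons was 0.964, 0.397 and 0.2, and none of 9 such tests on the 3 genes was under 0.05 after Benjamini-Hochberg adjustment. Those of ketamine in normoxia could not be, given the number of fetuses.

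**Figure D3:**
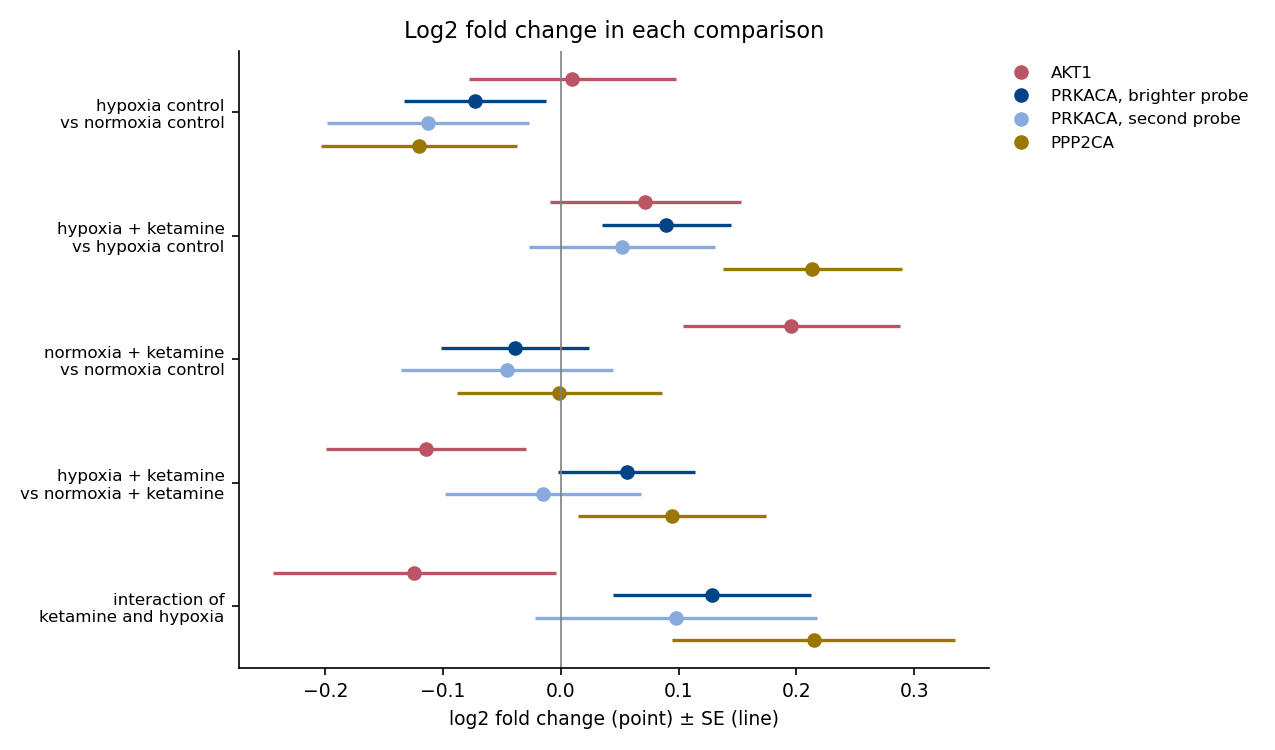
Log2 fold change (point) ± SE (line) of AKT1, of both PRKACA probes and of PPP2CA in the 5 comparisons, with the vertical line at no change. Points to the right are higher in the first named group. The AKT1 point in normoxia + ketamine (0.20) and the PPP2CA point in hypoxia + ketamine against hypoxia control (0.21) lie farthest to the right among the comparisons of 2 groups.

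The normalized values of PRKACA ranged over 1.21-fold across the fetuses, and the offset added in the background correction narrows the range of a probe as dim as this. Its brighter probe read 7.77, 7.78 and 7.96 in normoxia control, and 7.69, 7.83, 7.89 and 7.78 under ketamine in normoxia. In hypoxia control it read 7.77, 7.80, 7.83, 7.68 and 7.75, and in hypoxia + ketamine 7.79, 7.87, 7.87 and 7.89. Of the hypoxia + ketamine values 3 lay above every hypoxia control value, and replicate 1 lay below hypoxia control replicates 2 and 3, so the groups overlapped. The means were 7.76 ± 0.055 in hypoxia control, 7.80 ± 0.087 in normoxia + ketamine, 7.84 ± 0.11 in normoxia control and 7.85 ± 0.043 in hypoxia + ketamine (SD, n = 5, 4, 3 and 4), and no neighbours in that order differed by more than their spread.

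Ketamine before hypoxia gave the difference in PRKACA with the smallest p. Its log2 fold change against hypoxia control was 0.09 (SE 0.055, 95% confidence interval -0.03 to 0.21, limma adjusted P = 0.647). The two-sided exact permutation test over the 4 and 5 fetuses gave p = 0.0476, which became 0.429 after Benjamini-Hochberg adjustment over the 9 tests. The second probe of PRKACA gave 0.05 (SE 0.079, adjusted P = 0.883), with values of 7.57, 7.53, 7.56 and 7.76 in hypoxia + ketamine against 7.5, 7.74, 7.44, 7.48 and 7.61 in hypoxia control, so the difference was not larger than the spread on that probe. The other comparisons gave -0.07 (SE 0.06) for hypoxia, -0.04 (SE 0.063) for ketamine in normoxia, 0.06 (SE 0.058) for hypoxia under ketamine and 0.13 (SE 0.084) for the interaction, with limma adjusted P from 0.822 to 1. For hypoxia under ketamine the second probe gave the other sign, -0.02. With 75th percentile scaling the values of the brighter probe were larger, -0.26 for hypoxia, 0.33 for ketamine before hypoxia, -0.49 for ketamine in normoxia, 0.56 for hypoxia under ketamine and 0.81 for the interaction, or -0.10, 0.12, -0.19, 0.18 and 0.31 relative to the median of all probes, and none was called. In all, 0 of the 10 limma tests of AKT1 and the brighter PRKACA probe passed an unadjusted P of 0.05, and 1 of their 8 exact tests did. The exact tests of ketamine in normoxia could not pass, since 4 against 3 fetuses cannot go below 0.0571.

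PPP2CA was lowest after hypoxia without ketamine and highest after hypoxia with ketamine. In hypoxia control its log2 signal was 11.92, 12.01, 12.04, 11.91 and 11.88. In hypoxia + ketamine it was 12.06, 12.26, 12.13 and 12.21. The lowest ketamine value was above the highest value without it, in the 2 groups whose log2 fold change chose the gene. The means were 11.95 ± 0.068 (SD, n = 5) and 12.17 ± 0.088 (SD, n = 4), and the log2 fold change was 0.21 (SE 0.076), or 1.16-fold. Groups of this comparison that did not overlap, with ketamine higher, were found for 1.78% of all probes, and nothing is read from that here.

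Split by slide, these selecting values are given for completeness and support nothing further. On slide 1 the hypoxia control values were 11.92 and 12.01 against 12.06 and 12.26 with ketamine, a log2 fold change of 0.20. On slide 2 they were 12.04, 11.91 and 11.88 against 12.13 and 12.21, a log2 fold change of 0.23. With the background-corrected values scaled to the 75th percentile in place of quantile normalization PPP2CA differed by 0.20. There the median of all probes differed by 0.21, so that relative to the median the difference was -0.01, against 0.20 with quantile normalization. With the processed signal of the scanner software scaled to the same percentile, the median of all probes differed by only 0.01. Between these groups 1 of 4 astrocyte, 1 of 2 microglia and macrophage, and 1 of 4 choroid plexus and meninges markers were called lower with ketamine, and 0 of 5 endothelial markers and 0 of 1 red blood cell marker were called. The mean level of those lists was 10.17 to 10.5, 7.44 to 8.29, 9.36 to 11.77, 7.55 to 7.7 and 13.17 to 15.94 in hypoxia control, and 10.05 to 10.37, 7.44 to 7.78, 9.4 to 10.96, 7.49 to 7.71 and 12.63 to 14.66 in hypoxia + ketamine. Their part in the result was not tested.

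In normoxia, the one comparison that shares no array with the choice of PPP2CA, no difference with ketamine was detected. Normoxia control read 12.00, 12.14 and 12.08, and normoxia + ketamine read 11.97, 12.29, 11.88 and 12.15, so the ketamine values spread on both sides of the controls. The means were 12.07 ± 0.066 (SD, n = 3) and 12.07 ± 0.18 (SD, n = 4). The log2 fold change was -0.0013 (SE 0.087, 95% confidence interval -0.19 to 0.18, limma adjusted P = 1, two-sided exact permutation test p = 1). The SE, the interval and the limma P rest on the common spread of all groups, which includes the arrays that chose the gene. Only the exact test takes its spread from the normoxia arrays alone. The interval reaches 0.18, close to the 0.21 seen after hypoxia, so it does not show that ketamine acted differently on PPP2CA in normoxia. Its difference after hypoxia alone was -0.12 (SE 0.083), that between hypoxia + ketamine and normoxia + ketamine 0.09 (SE 0.08), and the interaction 0.21 (SE 0.12), given with no test because they rest on the arrays that chose the gene. With 75th percentile scaling and relative to the median of all probes, ketamine in normoxia gave 0.37, hypoxia alone 0.07, hypoxia under ketamine -0.34 and the interaction -0.38. The last 3 turned in sign only relative to that median, since without subtracting it they were -0.09, 0.04 and 0.13. In the order hypoxia control, the normoxia groups, hypoxia + ketamine, only the normoxia groups had equal means, and normoxia + ketamine had the widest range, 0.41 on the log2 scale.

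Across the 16 fetuses AKT1 and PRKACA had r = 0.42 (permutation p = 0.109, adjusted over the 3 pairs p = 0.164) and rho = 0.44 (p = 0.0869, adjusted p = 0.13). Their correlation was -0.15 on slide 1 (exact permutation p = 0.702) and 0.52 on slide 2 (exact p = 0.191), and these were not tested against each other. Without the 2 fetuses with AKT1 farthest from its median, normoxia + ketamine replicates 3 and 4, r was 0.47 (permutation p = 0.0916), and with the second PRKACA probe it was -0.08 (permutation p = 0.778). On deviations from the group means it was 0.56 (permutation p = 0.0264, rho 0.46 with p = 0.0763), a setting chosen after seeing the data. The pairs with PPP2CA include the arrays that chose it and are a description with no test. PRKACA and PPP2CA had r = 0.45 and rho = 0.47, with r = 0.77 on slide 1, 0.43 on slide 2, 0.43 without the 2 fetuses with PRKACA farthest from its median, 0.51 with the second probe and 0.22 on deviations from the group means. AKT1 and PPP2CA had r = 0.12 and rho = 0.11, with r = 0.22 on slide 1, 0.41 on slide 2, 0.22 without the 2 fetuses with AKT1 farthest from its median and -0.06 on deviations.

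**Figure D4:**
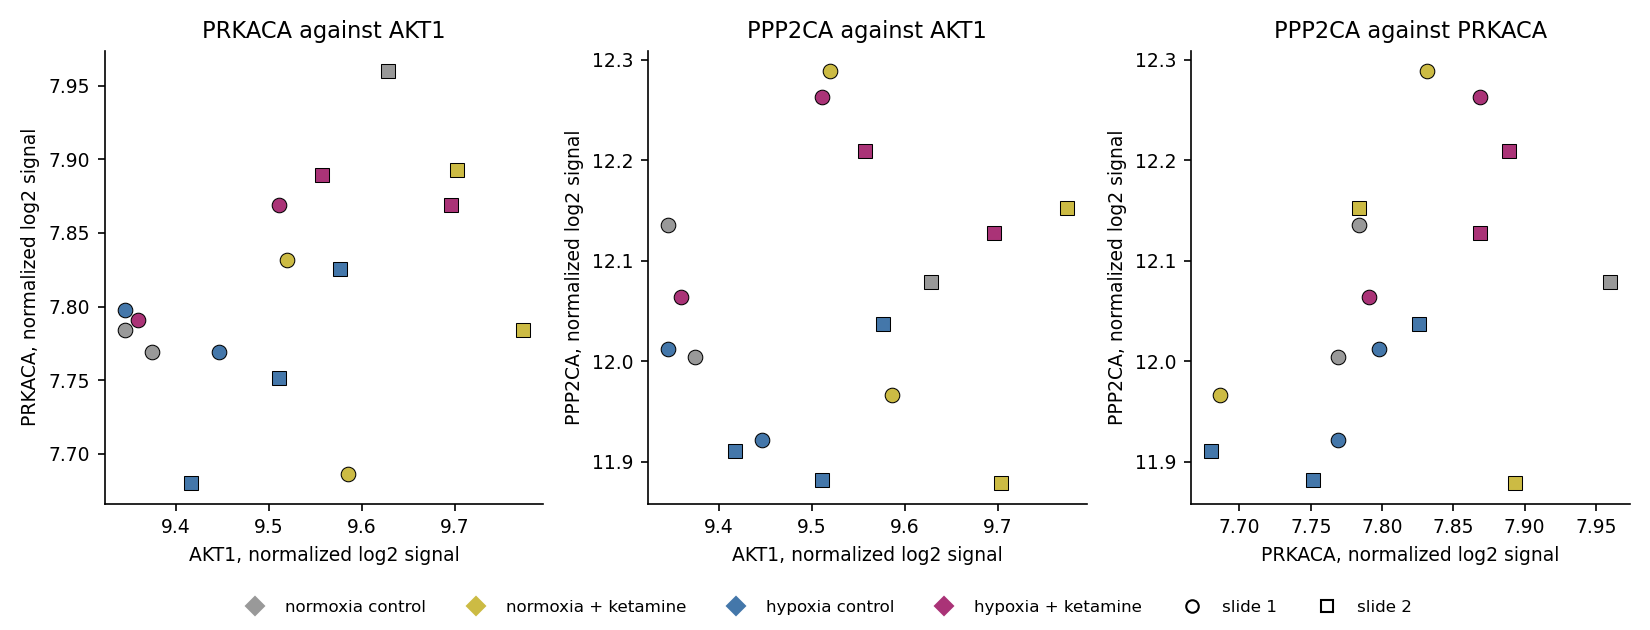
Log2 signal of each pair of AKT1, PRKACA and PPP2CA in the 16 fetuses, coloured by group, with circles for slide 1 and squares for slide 2. The points scatter widely in all panels (r = 0.42, 0.12 and 0.45 from left to right), and the fetuses with the highest AKT1 are on slide 2.

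Of the partners of these enzymes few were on the array by name. PPP2R1B, a scaffold subunit of PP2A, was the only other of 19 listed PP2A subunit genes, PTPA, an activator of PP2A, the only 1 of 17 listed regulators, and PRKAR1A, a regulatory subunit of PKA, the only other of 25 listed PKA genes. None of them was called in any of the 5 comparisons as reported. PPP2R1B read 7.38 ± 0.06 in normoxia control, 7.51 ± 0.097 in normoxia + ketamine, 7.39 ± 0.22 in hypoxia control and 7.48 ± 0.13 in hypoxia + ketamine, and its smallest P was that of ketamine in normoxia (log2 fold change 0.13, SE 0.11, limma adjusted P = 1). Over 13 other settings that value ran from -0.40 with 75th percentile scaling to 0.46 with the processed signal, and it was called in 1, with the replicate block (0.17). PTPA read 7.76 ± 0.064, 7.84 ± 0.045, 7.82 ± 0.15 and 7.84 ± 0.061 in the same order, with its smallest P also for ketamine in normoxia (0.09, SE 0.079, adjusted P = 1). PRKAR1A read 13.47 ± 0.1, 13.44 ± 0.12, 13.5 ± 0.13 and 13.48 ± 0.083, with its smallest P for hypoxia under ketamine (0.04, SE 0.081, adjusted P = 0.968). A second PRKAR1A probe was well above background on 0 of 16 arrays.

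**Figure D5:**
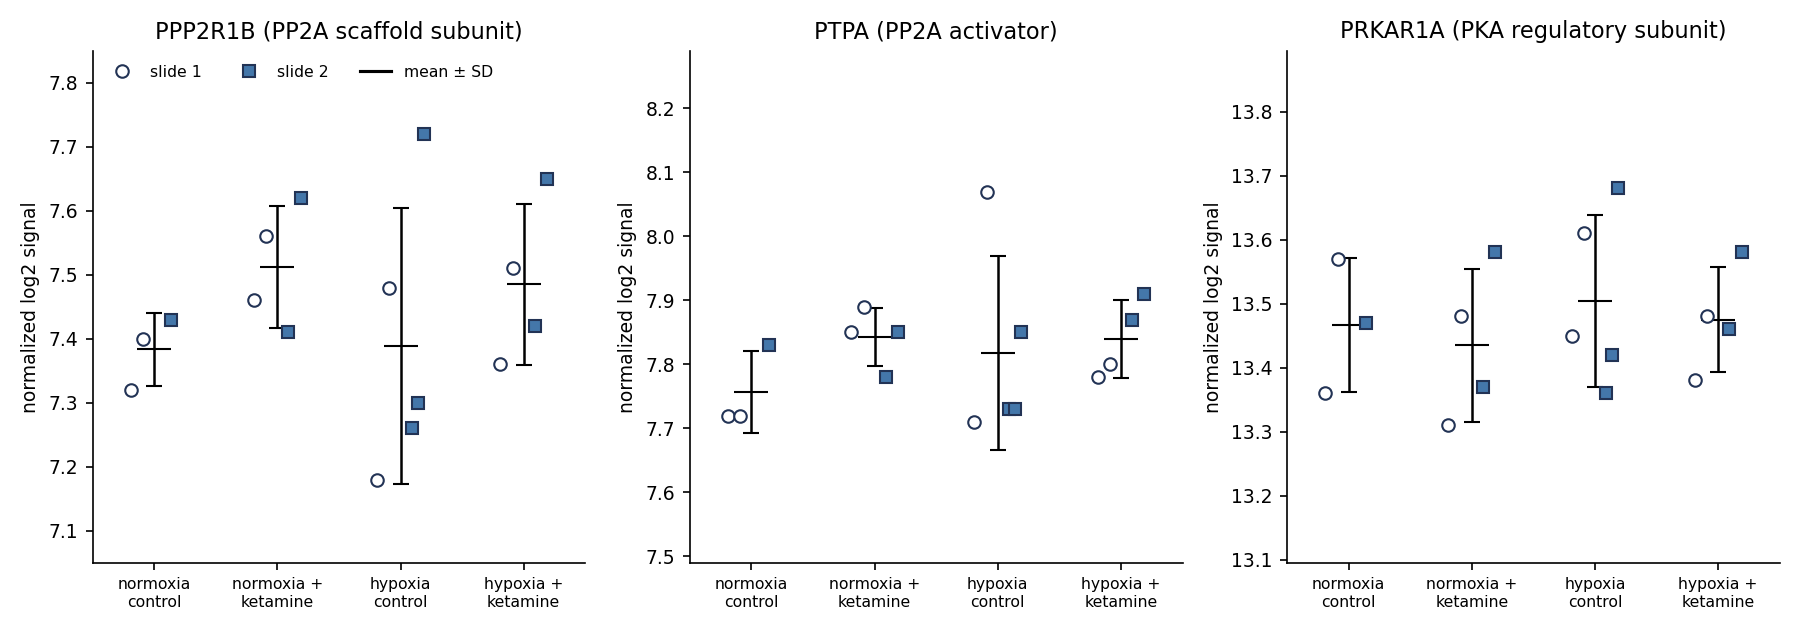
Normalized log2 signal of PPP2R1B, PTPA and PRKAR1A in each fetus, by group and slide, with the mean ± SD. The groups overlap in every panel, and the axes do not start at 0.

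The wider lists held 77 genes on the array besides the 3 themselves, from growth factors and cyclic AMP signalling down to substrates of AKT and PKA. After hypoxia 5 were called higher and 5 lower, 13% against 7.98% of all probes, with a median log2 fold change of 0.02, where all probes had -0.02. Ketamine before hypoxia left 2 called higher and 5 lower, 9.09% against 9.06%, with medians of -0.02 and 0.02. With ketamine in normoxia 2 were higher and 0 lower, 2.6% against 2.31%, with medians of 0.01 and 0. With hypoxia under ketamine 1 was higher and 4 lower, 6.49% against 6.86%, and in the interaction 1 was higher and 3 lower, 5.19% against 6.35%. The sets are unlike, since each list gene was read by its brightest named probe while all probes include unnamed and dim ones. Some markers of other cell types moved with hypoxia too. GFAP of astrocytes (log2 fold change 0.79, limma adjusted P = 0.317) and CD14 of macrophages (0.95, adjusted P = 0.32) were called higher. TTR was called lower (limma adjusted P = 0.538), which makes 3 of the 16 markers. The other members of their lists were not called. They were AQP4 (0.03), FGFR3 (0.02), GJA1 (0.09) and ITGAM (-0.01), and COL1A2 (0.22), DCN (0.16) and IGF2 (0.42), which lay opposite to TTR. TTR read 16, 15.55 and 9.33 in normoxia control and 6.78 to 11.56 in hypoxia control, where 4 of 5 arrays were well above background, so that replicate 3 of normoxia control lay within the range of hypoxia control and replicates 1 and 2 above it. The mean level of their lists was 10.03 to 10.21 in normoxia control and 10.17 to 10.5 in hypoxia control for astrocytes, 7.3 to 7.6 and 7.44 to 8.29 for microglia and macrophages, and 10.28 to 11.86 and 9.36 to 11.77 for choroid plexus and meninges. In the interaction GFAP (log2 fold change -0.70), CD14 (-0.74) and DCN of the choroid plexus and meninges list (-0.71) were called lower. Their limma adjusted P was 0.734, 0.779 and 0.772, and no marker was called higher. The part of these markers in the values of the list genes was not tested. Of the PI3 kinase and AKT activation list only HSP90AA1 and MAPKAP1 were on the array besides AKT1, and neither was called.

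Of the 77 genes, 3 were called higher and 1 lower after hypoxia with no overlap of the groups and a signal well above background on every array of a group, criteria that 1.16% of all probes met upwards and 1.82% downwards. KIT and PRKAA2 were also called lower with no overlap, but were not well above background on every array of either group. STAR met the last criterion only through the group where it is high, so nothing is read from these counts. SLC2A3, the neuronal glucose transporter GLUT3 and part of the AKT effector list, read 13.47, 13.24 and 13.32 in normoxia control and 15.04, 14.23, 14.16, 14.19 and 13.53 in hypoxia control. Every value after hypoxia was above every control, by the least in replicate 5, and the log2 fold change was 0.89 (SE 0.25, limma adjusted P = 0.34). It was 0.64 within slide 2 and 0.68 with hypoxia control replicate 1 placed in the other group, and not called in either case. FGF2, a growth factor whose receptors activate PI3 kinase, read 9.42, 9.65 and 9.67 in normoxia control and 11.03, 9.96, 10.34, 11.12 and 9.92 in hypoxia control. Replicates 1 and 4 of hypoxia control stood highest, and the log2 fold change was 0.89 (SE 0.37, adjusted P = 0.58). FGF2 was not called within slide 1 (0.96) or slide 2 (0.79), where fewer arrays were fitted, or with hypoxia control replicate 1 placed in the other group (0.75), nor without normoxia control replicate 1 (0.81) or 2 (0.93) or hypoxia control replicate 1 (0.75) or 4 (0.73). STAR, a mitochondrial cholesterol carrier that PKA activates, was not well above background on any of 3 normoxia control arrays and was at least 1.4-fold higher after hypoxia on the quantile normalized values (limma adjusted P = 0.317, measured log2 means of 7.27 and 6.77). That bound holds for this normalization only, since the fitted log2 fold change, 0.51 here, was 0.24 and not called with 75th percentile scaling and 2.33 with the processed signal. CDK5, a neuronal kinase of the list of other kinases, fell by 0.13 on the log2 scale (SE 0.057, adjusted P = 0.604), from 11.36, 11.28 and 11.39 to 11.15, 11.27, 11.25, 11.15 and 11.25. It was called in 6 of 13 other settings, not with hypoxia control replicate 1 placed in the other group (-0.12), and not without normoxia control replicate 1 (-0.12) or 3 (-0.11) or hypoxia control replicate 1 (-0.12) or 4 (-0.12).

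With ketamine in both groups, 3 list genes were lower after hypoxia than in normoxia under the same criteria, which 0.984% of all probes met. ADRB1 and KITLG were well above background on 4 of 4 arrays in normoxia and on 3 of 4 after hypoxia, so they met the criteria only through the group where they are high, and nothing is read from the count. DCN of the choroid plexus and meninges list was the only marker called lower here (-0.55). GRIN1, the obligatory subunit of the NMDA receptor that ketamine blocks and a substrate of PKA, read 9.58, 9.65, 9.97 and 9.79 in normoxia + ketamine and 9.58, 8.77, 8.9 and 9.22 in hypoxia + ketamine. The highest value after hypoxia was level with the lowest in normoxia to the second decimal, and the log2 fold change was -0.63 (SE 0.18, limma adjusted P = 0.483). GRIN1 was not called within slide 1 (-0.44) or with 75th percentile scaling (-0.46, where the median of all probes stood at 0.38). ADRB1, a receptor that raises cyclic AMP, had a log2 fold change of -0.19 (SE 0.063, adjusted P = 0.568), and KITLG, a growth factor, had -0.49 (SE 0.14, adjusted P = 0.483). Scaling the background-corrected values to the 75th percentile gave 0.47 for ADRB1 and 0.07 for KITLG while the median of all probes stood at 0.38. The sign of both turned, and that of ADRB1 also relative to the median. Over 13 other settings the values ran from -0.54 to 0.47 for ADRB1 and from -1.16 to 0.07 for KITLG. ADRB1 was not called within either slide (-0.20 and -0.18), nor KITLG within slide 1 (-0.34). None of these 7 genes passed adjustment over all probes.

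Among 620 named genes well above background on all arrays, those whose log2 values followed each of the 3 most closely over the 16 arrays are given as a description, since arrays share slides and normalization. For AKT1 they were POLR2G (r = 0.72, rho 0.69), PLAU (r = 0.70, rho 0.79) and PHF14 (r = 0.66, rho 0.66). For PRKACA they were ME1 (r = 0.70, rho 0.70), CLMP (r = 0.66, rho 0.45) and H2AZ1 (r = 0.64, rho 0.63). For PPP2CA they were a probe the files name PPLBC (r = 0.91, rho 0.92), SLIRP (r = 0.80, rho 0.81) and VDAC1 (r = 0.79, rho 0.74). On deviations from the group means r was 0.81, 0.67 and 0.69 for AKT1, 0.62, 0.60 and 0.62 for PRKACA, and 0.89, 0.73 and 0.68 for PPP2CA.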

How the data were processed

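Cyanine 3-labelled RNA was hybridized by the authors to one-colour Agilent sheep arrays, and they deposited scanner intensity values for every spot (Feature Extraction 10.1.1.1 in the file headers, another version in the methods). Their deposited processed values, on the log2 scale after background correction and quantile normalization by the authors, were used as an alternative only. Here the mean spot intensity was corrected in limma 3.58.1 (R 4.3.3) with normexp (offset 50) on the median local background, 536 control spots and 222 outlier spots were left out, arrays were quantile normalized and spots were averaged, which gave 15008 probes. A name could be given to 1598 probes, through RefSeq's sheep gene table (ARS-UI_Ramb_v3.0) or the files' own columns, a few of them from descriptions. One linear model over all groups gave each comparison with empirical Bayes moderated tests, and the study's threshold of an unadjusted P under 0.05, with Benjamini-Hochberg adjustment beside it. Dim probes were kept. On simulated data for hypoxia control against normoxia control with 14876 probes, 92% of log2 changes of 0.5 and 98% of changes of 1 were called in the right direction, and 5.56% of unchanged probes were called. Changes as small as those of AKT1, PRKACA and PPP2CA were not simulated, so these shares do not apply to them. Exact permutation tests (two-sided, doubling the smaller tail) and correlations (100000 resamples) used scipy. Precision is limited by the number of arrays. The members, the gene lists and the tests were chosen with earlier results of these data known. The text names AKT1, PRKACA and PPP2CA with every probe, all genes on the array of the PP2A and PKA lists, from the other lists the genes called in groups that did not overlap and well above background on every array of a group, the partners' comparison with the smallest P, and the 3 genes most like each member. Nothing says that samples came from separate ewes, so p-values measure the spread between these fetuses. Genome coordinates were not used here.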

Additional observations from a re-analysis of the deposited data

Results flagged for a closer look

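The second probe of PRKACA read 7.76 in hypoxia + ketamine replicate 4, while the other 3 fetuses of that group read 7.53 to 7.57. Its distance to the nearest of them was 0.836 of the range of the group, over the critical value of 0.829 for 4 samples. On the brighter probe of PRKACA the same fetus read 7.89, within 0.02 of replicates 2 and 3. Chance flags about 1 in 20 groups, and 12 were examined.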

How the results depend on the processing

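The values of PPP2CA in hypoxia + ketamine against hypoxia control, which chose the gene, were 0.19 to 0.28 over 13 settings and 0.18 to 0.25 without single arrays. With 75th percentile scaling of the background-corrected values they were -0.01 relative to the median of all probes. AKT1 in normoxia + ketamine against normoxia control stayed above 0, between 0.11 and 0.22 over 13 settings and between 0.14 and 0.29 without single arrays, and passed the unadjusted threshold with the median spot signal (0.22), the slide term (0.17), the replicate block (0.18) and the authors' values (0.22). PRKACA was called in none of its settings, with its values widest under 75th percentile scaling (-0.49 to 0.81).

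Some values near 0 changed sign. AKT1 in hypoxia control against normoxia control was -0.04 with 75th percentile scaling (0.12 relative to the median of all probes) and with the slide term, -0.13 within slide 2, -0.02 with the replicate block, -0.01 with array weights and -0.04 to 0.10 without single arrays. PPP2CA in normoxia + ketamine was 0.0029 with the processed signal, 0.07 with 75th percentile scaling, 0.0043 with the slide term, 0.06 within slide 1, 0.01 with array weights and -0.07 to 0.06 without single arrays. PRKACA was 0.01 within slide 1 for hypoxia, -0.02 on its second probe for hypoxia under ketamine, and -0.07 to 0.02 without single arrays for ketamine in normoxia. The AKT1 interaction was 0.01 within slide 2. PTPA in normoxia + ketamine was -0.01 within slide 2, and PRKAR1A for hypoxia under ketamine was -0.0012 to 0.09 without single arrays. The cause was not tested.

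Scaling normexp values to the 75th percentile moved the median of all probes by -0.16, 0.21, -0.30, 0.38 and 0.51 (hypoxia, ketamine before hypoxia, ketamine in normoxia, hypoxia under ketamine, interaction), and ADRB1 (0.47), KITLG (0.07), PPP2R1B (-0.40), PTPA (-0.36) and PRKAR1A (-0.04) turned in sign, of which only KITLG kept its sign relative to that median. In that order it called 194, 208, 43, 323 and 183 probes, where the reported setting called 1197, 1359, 347, 1029 and 953, and Benjamini-Hochberg adjustment called 0 in all 5. The other counts that moved were 226 with the filter on dim probes and 560 with array weights for ketamine in normoxia, 694, 657, 209, 638 and 318 within slide 1, and 668 for hypoxia and 877 for ketamine before hypoxia within slide 2, where fewer arrays were fitted. Without single arrays the counts ran over 811 to 1379, 1079 to 1542, 277 to 516, 735 to 1193 and 724 to 1125. Of the called probes 41.9, 60.6, 38.0, 45.5 and 62.0% were higher. That share was 70.6, 45.7, 27.9 and 55.7% for the first 4 with 75th percentile scaling, and 57.1, 50.9 and 49.3% for hypoxia, ketamine in normoxia and the interaction with the processed signal. It was 52.6 and 48.1% for ketamine in normoxia and the interaction within slide 1, 31.3% for hypoxia within slide 2, and 49.9 and 52.9% for ketamine in normoxia without normoxia + ketamine replicate 1 or 3.

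The correlation of AKT1 and PRKACA was -0.15 within slide 1, -0.08 with the second PRKACA probe and 0.56 on deviations from the group means, that of AKT1 and PPP2CA -0.06 on such deviations, and that of PRKACA and PPP2CA 0.77 within slide 1 and 0.51 with the second probe. The deviations and the second probe in correlations, and all settings for genes of the lists, were chosen after seeing the data. Samples that share a replicate number correlated by -0.11 to 0.37 (median 0.04) in their deviations, over 0.1 in 6 of 21 pairs, so the numbers were not taken as pairing. With the replicate block 1488, 1609, 476, 1301 and 1193 probes were called.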
